A study of Mus musculus with 48 samples.

Results

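The Schlafen genes Slfn1, Slfn2, Slfn3, Slfn4, Slfn5, Slfn8 and Slfn9 were described across 48 mouse soft tissue sarcomas, as 7 of the 36854 genes in the deposited count table. The family was chosen by the measured level of its member Slfn4, which was higher 3 days after 20 Gy of radiation, so the dose differences given here are a description and carry no test. Its level under the antibody, its level in one kind of tumour against the other, and the way members varied together inside a group were not part of that choice.

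The study measured RNA from whole tumours in 8 groups set by tumour kind, dose and antibody. Primary tumours (32, with 8 per group) were raised in p53FL/FL mice aged 6 to 10 weeks by an intramuscular injection of Adeno-Cre, a virus that deletes floxed p53 in the cells it enters, together with 300 µg of the carcinogen MCA. Allografts (16, with 4 per group) grew from 50,000 cells of 1 sarcoma line, 402230, placed in Matrigel in the gastrocnemius muscle of syngeneic mice, so all 16 share 1 tumour of origin. All mice were of the 129/SvJae strain, and all tumours, the comparison groups included, received an injection into the peritoneum when they reached about 150 mm3. It held 200 µg either of muDX400, a murine antibody to the T cell inhibitory receptor PD-1, or of an isotype antibody. The hind limb then received 0 or 20 Gy at once, and the tumour was taken 3 days later.

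Schlafen proteins share a divergent AAA-like core and are known as interferon-inducible regulators of growth and of the translation or copying of foreign RNA. Mouse members fall into a short class (Slfn1 and Slfn2), an intermediate class (Slfn3 and Slfn4) and a long class with a helicase-like end (Slfn5, Slfn8 and Slfn9). Type I interferons act through Ifnar1 and Ifnar2 and factors that include Stat2 and Irf9, which bind interferon-stimulated response elements (ISREs) upstream of responding genes. In tumours, Schlafen transcripts can come from the tumour cells and from leukocytes, since Slfn2 keeps T cells quiescent, Slfn1 slows the growth of thymocytes and Slfn4 is known from myeloid cells.

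All 7 genes lie on mouse chromosome 11 (build mm10). In order along it they are Slfn5 at chr11:82951349-82964840 on the plus strand, Slfn9 at chr11:82978390-82991830 and Slfn8 at chr11:83002158-83020810 on the minus strand, then Slfn2 at chr11:83065112-83070678, Slfn1 at chr11:83116849-83122670, Slfn4 at chr11:83175186-83190216 and Slfn3 at chr11:83191330-83215154 on the plus strand. The long members thus stand together at one side of the cluster, and the short and intermediate members at the other. Their Ensembl identifiers, in the same order, are ENSMUSG00000054404, ENSMUSG00000069793, ENSMUSG00000035208, ENSMUSG00000072620, ENSMUSG00000078763, ENSMUSG00000000204 and ENSMUSG00000018986.

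The promoter windows are shown because the ISRE core searched was found in those of the long members only. Windows from RefSeq (GRCm38.p6) ran from 250 bases before to 50 bases after each gene's start, and each of the 7 members matched, Slfn8 with a window at each of 2 starts. An ISRE core (GAAANNGAAA on either strand, so TTTCNNTTTC when read on the other) was found in 1131 of the 32851 promoters of this length, which is 3.44%. It was found in the windows of Slfn5, Slfn9 and Slfn8, and these letters were not in the windows of Slfn1, Slfn2, Slfn3 and Slfn4. A gamma-activated site (TTCNNNGAA) was in 8.30% of promoters and in none of the members' windows. In the lines below, written 5′ to 3′ on each gene's own strand, capitals mark the core, which began 155, 45 and 48 bases before the start of Slfn5, Slfn9 and Slfn8. Distances are from the RefSeq start, which for Slfn5 lies inside the gene span given above, downstream of its first base there. The window of the other start of Slfn8 holds the same core, farther from that start. The stretches of Slfn9 and Slfn8 are alike in most letters, so their matches are not independent.
Slfn5 (plus strand, chr11:82951917-82951986): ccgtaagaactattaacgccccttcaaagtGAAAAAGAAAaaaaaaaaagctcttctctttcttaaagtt
Slfn9 (minus strand, chr11:82991836-82991905): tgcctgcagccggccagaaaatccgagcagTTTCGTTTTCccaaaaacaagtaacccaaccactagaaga
Slfn8 (minus strand, chr11:83020819-83020888): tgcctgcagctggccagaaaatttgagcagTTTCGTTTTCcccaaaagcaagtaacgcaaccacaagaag

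The longest run of letters common to the windows of Slfn1, Slfn2, Slfn3 and Slfn4 was the 9 bases ACTTCCTGG, which were not in the windows of Slfn5, Slfn8 or Slfn9. It was looked for after the windows had been read, in these 4 members by choice, so its presence in all 4 was fixed in advance. Of all promoters, 0.843% hold it on one strand or the other. It is in capitals below and began 55, 74, 73 and 42 bases before the start of Slfn2, Slfn1, Slfn4 and Slfn3.
Slfn2 (plus strand, chr11:83065027-83065095): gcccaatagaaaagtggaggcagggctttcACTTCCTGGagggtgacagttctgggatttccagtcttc
Slfn1 (plus strand, chr11:83116716-83116784): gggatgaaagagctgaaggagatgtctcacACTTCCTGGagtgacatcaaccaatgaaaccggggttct
Slfn4 (plus strand, chr11:83175083-83175151): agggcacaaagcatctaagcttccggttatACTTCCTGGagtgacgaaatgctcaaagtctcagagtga
Slfn3 (plus strand, chr11:83191258-83191326): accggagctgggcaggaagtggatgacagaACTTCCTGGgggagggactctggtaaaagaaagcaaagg

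Libraries held 31810461 to 54008259 counts. Levels are given as CPM, each gene's counts scaled by library size with TMM factors. The markers of sarcoma cells were present in every tumour (summed mesenchymal markers 6265 to 64550 CPM), and skeletal muscle markers ranged from 15.5 to 84010 CPM. Some tumours lay far from their group in several members. In replicate 4 of the unirradiated isotype-treated primary tumours the log2 level of Slfn4 was 3.27, of Slfn1 1.961 and of Slfn2 1.12 above the group's mean. In replicate 5 of the irradiated anti-PD-1 primary tumours Slfn1, Slfn2, Slfn3, Slfn5 and Slfn8 deviated by -1.57 to -1.09, and leukocyte markers were low (Ptprc, which encodes CD45, at 57.9 CPM). Replicate 4 of that group had a summed skeletal muscle level of 84008 CPM. These are bulk samples, so fewer cells of a type and less RNA per cell cannot be told apart.

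Long exact matches bear on how far counts can be assigned. Of the 50-base words in a member's annotated transcripts, 0.606% (Slfn1) to 15.6% (Slfn3) also occurred in another gene. The gene that shared the most words with Slfn3 was Slfn4 (252 of 531 shared words), and for Slfn8 (14.6%) and Slfn9 (11.5%) it was the pseudogene Slfn10-ps. For Slfn4 the share was 10.8%, most of it with Slfn3. How the counting treated such reads is not given in the sources used here, so the levels of Slfn3, Slfn4, Slfn8 and Slfn9 are the least certain. Slfn10-ps itself averaged 4.17 CPM in unirradiated and 11.4 CPM in irradiated isotype-treated allografts, and 4.03 and 15.3 CPM in the matching primary tumours.

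Per kilobase of exon, Slfn2 was the most abundant member in each of the 8 groups and Slfn3 the least. The mean level of Slfn2 was 45.4 and 152 RPKM (CPM per kilobase) at 0 and 20 Gy in isotype-treated allografts, and 31.1 and 140.7 RPKM in the matching primary tumours. Slfn2 made up 39.5% ± 6.90 (SD, n = 8) of the summed per-length level of the family in irradiated isotype-treated primary tumours and 55.8% ± 3.36 (SD, n = 4) in unirradiated isotype-treated allografts, which bounded its group means. Slfn4 changed place in this order: by mean level it had rank 5 of 7 in all 4 unirradiated groups, rank 2 in 3 irradiated groups and rank 4 in the irradiated isotype-treated allografts. Its share of the family was 5.34% ± 5.09 (SD, n = 8) at 0 Gy and 22.6% ± 5.74 (SD, n = 8) at 20 Gy in isotype-treated primary tumours. In isotype-treated allografts its share was 6.31% ± 2.55 and 12.6% ± 3.45 (SD, n = 4 each). In irradiated isotype-treated primary tumours the shares of the next members were 16.5% ± 1.84 for Slfn1 and 15.1% ± 6.83 for Slfn5 (SD, n = 8). Per kilobase, Slfn4 was above Slfn1 in each of these tumours, whereas Slfn5 was above Slfn4 in replicates 2 and 8. In irradiated anti-PD-1 allografts Slfn4 averaged 66.8 RPKM and Slfn1 66.0 RPKM, and in irradiated anti-PD-1 primary tumours the share of Slfn4 was 18.1% ± 13.4 beside 17.2% ± 2.87 for Slfn1 and 16.9% ± 5.44 for Slfn5 (SD, n = 8), so rank 2 was not separated from the ranks after it in either.

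**Figure D1:**
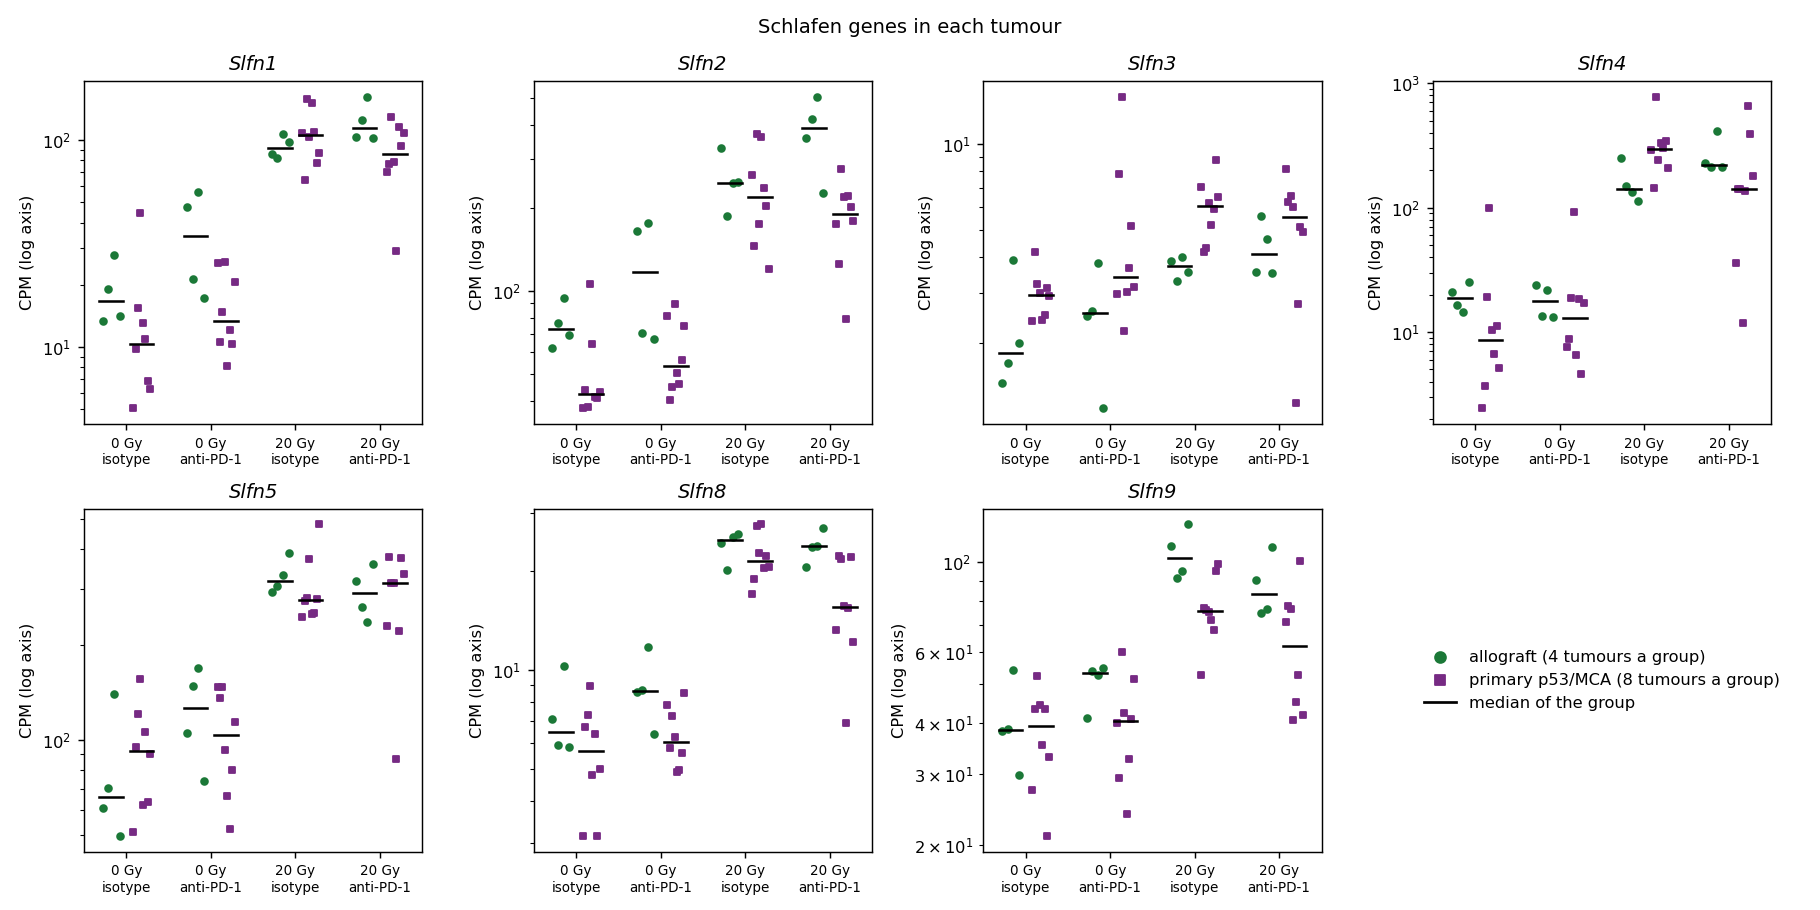
Level of each Schlafen gene in every tumour, as TMM-scaled CPM on a log axis, by group of tumour kind, dose and antibody. Each point is 1 tumour and the bars mark group medians. Slfn4 in primary tumours spans 2.43 to 778 CPM in the isotype-treated groups, while Slfn3 reaches at most 14.6 CPM in any tumour.

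Slfn2 and Slfn1, the short members, were higher in the irradiated tumours of both kinds. Slfn1 was at 13.4, 19.1, 27.7 and 14.1 CPM in the unirradiated and 85.7, 82.3, 107.3 and 97.6 CPM in the irradiated isotype-treated allografts. Under anti-PD-1 its levels were 47.5, 21.2, 56.1 and 17.3 CPM at 0 Gy and 103.45, 124.6, 162 and 101.9 CPM at 20 Gy. The groups of each pair did not overlap, and 2 of the 4 unirradiated anti-PD-1 allografts lay above every unirradiated isotype-treated one. In isotype-treated primary tumours the lowest, median and highest levels were 5.05, 10.4 and 44.4 CPM at 0 Gy. At 20 Gy the lowest and highest were 64.5 and 158 CPM, and the middle tumours of the 8 were at 103.56 and 108.44 CPM. Under anti-PD-1 they were 8.08, 13.4 and 25.8 CPM and then 29.3, 85.9 and 129 CPM. Slfn1 was the 1 member whose groups did not overlap in any of the 4 pairs. The log2 difference of Slfn1 between doses was 2.35 (SE 0.35) and 1.83 (SE 0.34) in allografts with isotype and anti-PD-1, and 2.97 (SE 0.38) and 2.49 (SE 0.37) in primary tumours, or 5.1-, 3.55-, 7.81- and 5.64-fold. Without replicate 4 of the unirradiated isotype-treated primary tumours the third of these was 3.53 (SE 0.33), and without replicate 5 of the irradiated anti-PD-1 primary tumours the last was 2.62 (SE 0.36).

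Slfn2 ranged from 62.1 to 94.0 CPM in unirradiated and from 187 to 331 CPM in irradiated isotype-treated allografts. Under anti-PD-1 the allografts ranged from 66.9 to 176 CPM at 0 Gy and from 226 to 506 CPM at 20 Gy. In isotype-treated primary tumours the lowest, median and highest were 37.5, 42.1 and 105.95 CPM at 0 Gy and 120.3, 219 and 370.3 CPM at 20 Gy. These groups were separate. Under anti-PD-1 the primary tumours reached from 40.1 to 89.6 CPM at 0 Gy and from 79.1 to 276 CPM at 20 Gy, and here they overlapped. The log2 differences were 1.77 (SE 0.33), 1.69 (SE 0.33), 2.20 (SE 0.27) and 1.65 (SE 0.27) in the same order of groups. Without those 2 tumours the last 2 were 2.46 (SE 0.26) and 1.76 (SE 0.26).

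Slfn4, the intermediate member known from myeloid cells, had the largest dose difference of the family in every pair of groups. Isotype-treated allografts held 20.8, 16.4, 14.5 and 25.2 CPM at 0 Gy and 249, 149, 134.4 and 112.01 CPM at 20 Gy. Anti-PD-1 allografts held 23.6, 13.6, 21.9 and 13.2 CPM at 0 Gy and 227, 209.85, 411 and 211 CPM at 20 Gy. No unirradiated allograft was above 25.2 CPM and no irradiated one below 112.01 CPM. Isotype-treated primary tumours had a lowest, median and highest level of 2.43, 8.565 and 98.6 CPM at 0 Gy and 143.75, 295 and 778 CPM at 20 Gy. The tumour at 98.6 CPM was replicate 4, with the next at 19.2 CPM, and even it was below every irradiated tumour of the pair. Anti-PD-1 primary tumours had 4.64, 13.0 and 91.4 CPM at 0 Gy and 11.9, 141.2 and 660.4 CPM at 20 Gy. In this pair the doses overlapped. The log2 difference of Slfn4 was 3.09 (SE 0.32) and 3.91 (SE 0.33) in allografts with isotype and anti-PD-1, or 8.52- and 15-fold, and 4.09 (SE 0.80) and 3.32 (SE 0.77) in primary tumours, or 17- and 9.96-fold.

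Slfn4 had the widest spread of the members in each of the 4 primary groups. The SD of its log2 level was 0.347 to 0.491 in the 4 allograft groups, where another member was more variable in 3 of them, and 1.586, 1.304, 0.7 and 1.817 in the primary groups (0 Gy isotype, 0 Gy anti-PD-1, 20 Gy isotype and 20 Gy anti-PD-1). In the last of these, 2 tumours held little of it. Replicate 1 was at 35.8 CPM although its summed type I interferon response genes reached 8024 CPM, and its summed neutrophil and monocyte markers were 145.3 CPM. Replicate 4 was at 11.9 CPM, with its muscle level of 84008 CPM beside a Ptprc level of 373 CPM and neutrophil and monocyte markers of 869 CPM. The part of these markers in the Slfn4 level was not tested. Without replicate 4 the log2 difference of Slfn4 in anti-PD-1 primary tumours was 3.50 (SE 0.75). Without replicate 4 of the unirradiated isotype-treated primary tumours, which also had 106.9 CPM of summed NK cell markers, its difference under isotype was 5.35 (SE 0.77), and without replicate 5 of the irradiated anti-PD-1 group that under anti-PD-1 was 3.38 (SE 0.80).

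Slfn3, the other intermediate member and the neighbour of Slfn4, did not share its pattern. Isotype-treated allografts held 1.45, 1.71, 3.90 and 2.00 CPM at 0 Gy and 3.89, 3.31, 3.99 and 3.54 CPM at 20 Gy. Anti-PD-1 allografts held 2.48, 2.59, 3.82 and 1.18 CPM at 0 Gy and 3.54, 5.58, 4.65 and 3.51 CPM at 20 Gy. The doses overlapped in both pairs, through the unirradiated tumour at 3.90 CPM in the one and that at 3.82 CPM in the other. In isotype-treated primary tumours the lowest, median and highest were 2.38, 2.96 and 4.17 CPM at 0 Gy and 4.17, 6.04 and 8.78 CPM at 20 Gy. Those groups were separate by a narrow gap. Under anti-PD-1 they were 2.20, 3.40 and 14.6 CPM and 1.23, 5.54 and 8.18 CPM, and they overlapped. The log2 difference of Slfn3 was 0.72 (SE 0.35), 0.81 (SE 0.35), 1.04 (SE 0.33) and -0.03 (SE 0.33) across the same pairs. Without replicate 3 of the unirradiated isotype-treated allografts the first of these was 1.13. The last changed sign, to 0.12 (SE 0.30), without replicate 5 of the irradiated anti-PD-1 primary tumours.

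The long members had smaller differences than Slfn4. Slfn5, a nuclear and interferon-induced member, ranged from 49.5 to 139.25 CPM in unirradiated and from 293 to 389 CPM in irradiated isotype-treated allografts, and from 73.9 to 169 and from 236 to 360.0 CPM under anti-PD-1. In primary tumours it had a lowest, median and highest level of 51.1, 92.4 and 156 CPM at 0 Gy and 244, 276 and 480.4 CPM at 20 Gy with isotype. With anti-PD-1 it had 52.1, 103.4 and 147 CPM and 87.1, 314 and 379 CPM. Its groups overlapped in the last pair only. The log2 differences of Slfn5 were 2.07 (SE 0.32), 1.28 (SE 0.31), 1.73 (SE 0.26) and 1.47 (SE 0.26). Without the tumours that stood apart (replicate 4 at 0 Gy with isotype, replicate 5 at 20 Gy with anti-PD-1) the primary values were 1.90 and 1.60.

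Slfn8 ranged from 5.83 to 10.3 CPM and from 20.1 to 25.8 CPM at 0 and 20 Gy in isotype-treated allografts, and from 3.14 to 8.93 CPM and from 17.0 to 27.6 CPM in isotype-treated primary tumours. Its log2 differences were 1.73 (SE 0.21), 1.46 (SE 0.21), 1.98 (SE 0.22) and 1.37 (SE 0.22). Slfn9 ranged from 29.7 to 54.1 CPM and from 91.3 to 124.2 CPM in the same allografts, and from 21.004 to 52.2 CPM and from 52.7 to 98.9 CPM in the same primary tumours. Thus Slfn9 had the narrowest gap between doses among the long members, with log2 differences of 1.41 (SE 0.19), 0.83 (SE 0.19), 1.06 (SE 0.20) and 0.69 (SE 0.20). Under anti-PD-1 the doses were separate for both genes in allografts and overlapped for both in primary tumours. There Slfn8 ranged from 4.89 to 8.52 CPM at 0 Gy and from 6.90 to 22.2 CPM at 20 Gy, with 7 of 8 irradiated tumours above all unirradiated ones. Slfn9 ranged from 23.9 to 60.1 CPM and from 40.6 to 100.49 CPM, with 4 of 8 above. Without the same tumours the primary values were 2.12 and 1.48 for Slfn8 and 1.12 and 0.75 for Slfn9.

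**Figure D2:**
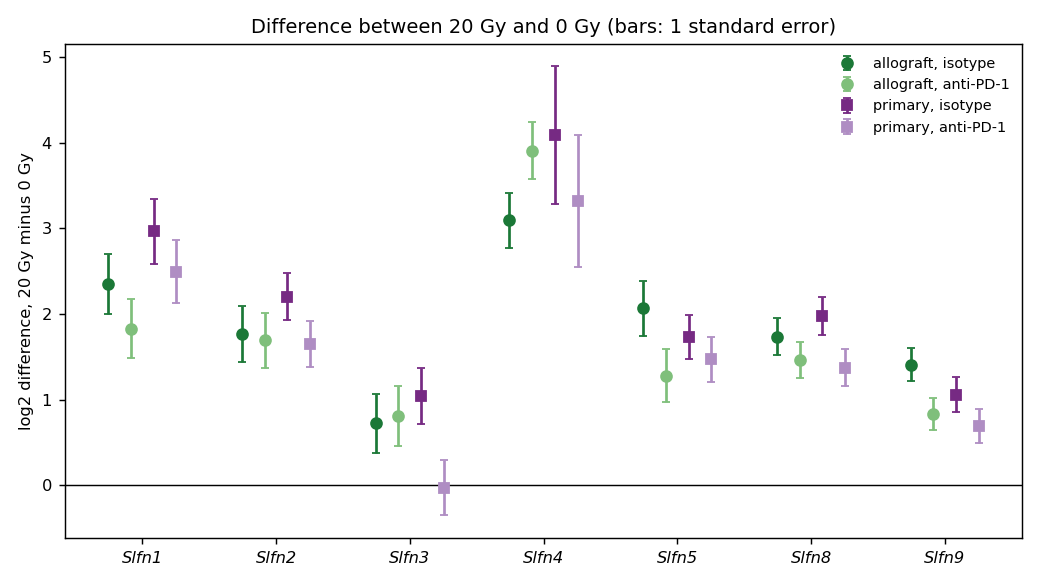
Log2 difference (20 Gy minus 0 Gy) of each Schlafen gene in the 4 pairs of groups, with bars of 1 standard error from the edgeR fit of each tumour kind. Slfn4 has the largest value in each pair, from 3.09 to 4.09, and Slfn3 the smallest, from -0.03 to 1.04.

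Counted against the whole table, an adjusted p below 0.05 with a higher level after 20 Gy was reached by 6 of 7 members in isotype-treated allografts (background 4.40% of genes tested), 6 of 7 in anti-PD-1 allografts (3.13%), 7 of 7 in isotype-treated primary tumours (7.85%) and 6 of 7 in anti-PD-1 primary tumours (6.06%). Slfn3 was the member not called in each pair with 6. In anti-PD-1 allografts 3 members and 0.595% of all genes, in either direction, were called in a fit of all 48 tumours. In a fit of those 2 groups alone 1 member was called, Slfn4, and it was the 1 gene called of 16939. For the combined treatment against neither, 6 of 7 were called in allografts (7.43%) and 6 of 7 in primary tumours (8.78%), sharing samples with the pairs above. The median log2 difference of the members was 1.77 in isotype-treated allografts and 1.98 in isotype-treated primary tumours, where that of all genes tested was -0.0019 and -0.0201. Groups that did not overlap, higher at 20 Gy, were found for 6 of 7 members in isotype-treated allografts (9.45% of genes), 6 of 7 in anti-PD-1 allografts (5.44%), 7 of 7 in isotype-treated primary tumours (1.55%) and 1 of 7 in anti-PD-1 primary tumours (0.259%). Since the choice of the family used this contrast, nothing is read from these counts.

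Leukocyte markers differed with dose alongside the family. Ptprc was at 96.6 to 221 CPM in unirradiated and 308 to 498 CPM in irradiated isotype-treated allografts, and at 70.0 to 145 and 104.8 to 338 CPM in the matching primary tumours. The doses were thus separate in the allografts and overlapping in the primary tumours. Summed neutrophil and monocyte markers were 254 to 558 and 653 to 1156 CPM in those allografts, with 3 of 12 called higher, and 82.1 to 310.4 and 190.7 to 1409 CPM in those primary tumours, with 7 of 12 called higher. Of the macrophage markers 4 and 6 of 12 were called higher, of the NK cell markers 3 and 2 of 7, and of the T cell markers 0 and 0 of 12, in the same order. No marker of these lists was at 0 in a whole group. The summed macrophage level was 1813 to 2764 and 3400 to 5419 CPM in allografts and 1918 to 3721 and 2679 to 5167 CPM in primary tumours.

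A fit with log2 Ptprc as a covariate, chosen after seeing the data, gave smaller dose differences. In isotype-treated primary tumours Slfn4 had a log2 difference of 3.77 (SE 0.83) beside 4.09 without the covariate, and Slfn2 had 1.65 (SE 0.23) beside 2.20. Slfn3 had 1.02 (SE 0.39) beside 1.04. In isotype-treated allografts Slfn4 had 2.92 (SE 0.59) beside 3.09, whereas Slfn2 had 0.40 (SE 0.41) beside 1.77 and Slfn1 had 0.84 (SE 0.34) beside 2.35. Slfn3 had -0.65 (SE 0.41) beside 0.72, a change of sign. With this covariate 0 of 7 members and 2 genes in all were called in these allografts, where the Ptprc levels of the 2 doses did not overlap and the 2 cannot be told apart.

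**Figure D3:**
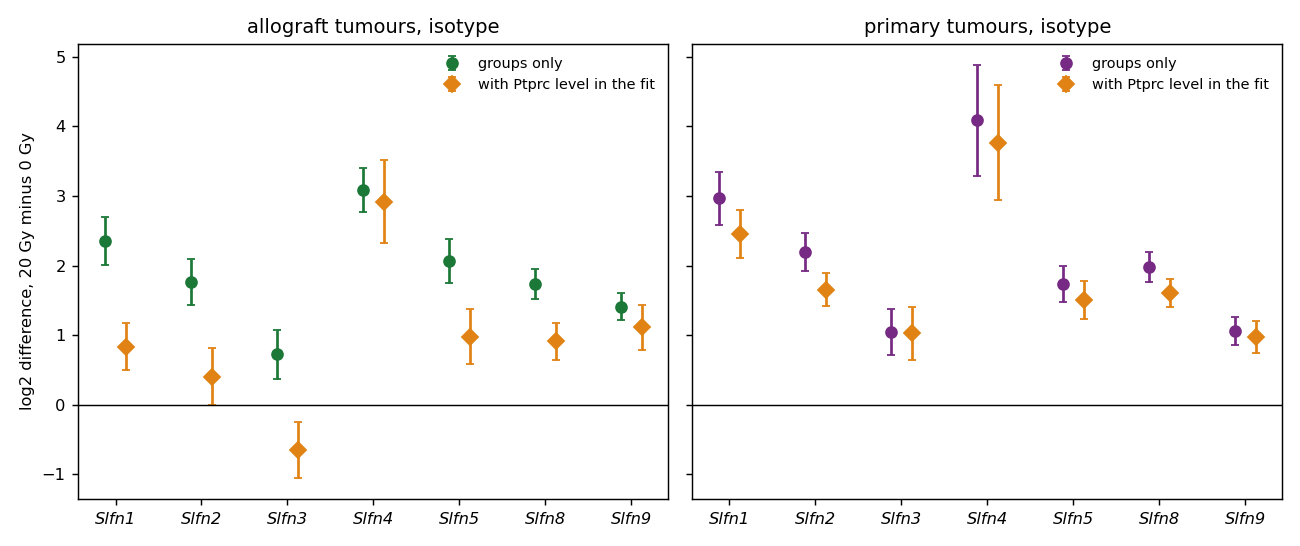
Log2 difference between doses of each Schlafen gene in isotype-treated tumours, from the fit without and the fit with log2 Ptprc as a covariate, with bars of 1 standard error. In allografts Slfn2 goes from 1.77 to 0.40 and Slfn4 from 3.09 to 2.92, and in primary tumours Slfn2 goes from 2.20 to 1.65.

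The antibody was compared at each dose, a contrast that did not choose the family. edgeR's quasi-likelihood test with Benjamini-Hochberg adjustment called 0 of 7 members in each of the 4 comparisons, where 0% of all genes tested were called, and DESeq2 called 0 members as well. A single member in each had an unadjusted p below 0.05, against 299 and 682 genes in all in allografts at 0 and 20 Gy and 412 and 1443 in primary tumours. Slfn1 differed in unirradiated allografts by a log2 value, anti-PD-1 minus isotype, of 0.91 (SE 0.34, edgeR adjusted p = 0.9999). Slfn4 differed by 0.71 (SE 0.29, edgeR adjusted p = 0.6816) in irradiated allografts, with a 95% interval of 0.13 to 1.28 and 3 of 4 tumours with anti-PD-1 below the highest tumour with isotype. Without the anti-PD-1 tumour at 411 CPM that difference was 0.44 (SE 0.28). In primary tumours Slfn3 differed by 0.84 (SE 0.33, edgeR adjusted p = 0.9998) at 0 Gy and Slfn8 by -0.45 (SE 0.21, edgeR adjusted p = 0.6089) at 20 Gy. Without the anti-PD-1 tumour at 14.6 CPM the difference of Slfn3 was 0.43 (SE 0.28), and without replicate 3 of the unirradiated anti-PD-1 allografts that of Slfn1 was 0.60 (SE 0.32). All 7 differences were below 0 in irradiated primary tumours, from -0.65 to -0.11. Without replicate 5 of the anti-PD-1 group they ran from -0.58 for Slfn4 to 0.03 for Slfn5. For Slfn4 the interval there ran from -2.04 to 0.74.

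Whether the dose difference itself depended on the antibody was tested with an interaction term. Again 0 of 7 members were called in allografts and 0 of 7 in primary tumours, by edgeR and by DESeq2, and 0% of all genes were called in either. Slfn9 had an interaction of -0.58 (SE 0.26, edgeR adjusted p = 0.864) in allografts, meaning a smaller dose difference with anti-PD-1. Slfn3 had one of -1.07 (SE 0.46, edgeR adjusted p = 0.9712) in primary tumours, and -0.67 (SE 0.40) without the unirradiated tumour at 14.6 CPM. Each was the 1 member of 7 with an unadjusted p below 0.05 in its comparison, as were 269 of 17746 genes in allografts and 756 of 17770 in primary tumours.

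Primary tumours and allografts were compared within each treatment. No member was called by edgeR, where 10.0% of genes in the unirradiated isotype groups, 8.94% in the unirradiated anti-PD-1 groups, 4.76% in the irradiated isotype groups and 0.00566% in the irradiated anti-PD-1 groups were. At an unadjusted p below 0.05 the members numbered 0, 3, 3 and 1 of 7, beside 4526 of 17357, 4336 of 17455, 3508 of 17624 and 2965 of 17674 genes. DESeq2 called 0, 2, 1 and 0 members, beside 3012, 2870, 1937 and 1015 genes. Of the short members, Slfn2 differed by -0.97 (SE 0.30, edgeR adjusted p = 0.0603) and Slfn1 by -1.15 (SE 0.38, edgeR adjusted p = 0.0757) in the unirradiated anti-PD-1 groups. In the irradiated anti-PD-1 groups Slfn2 differed by -1.05 (SE 0.30, edgeR adjusted p = 0.143). Both intermediate members were above 0 in the irradiated isotype groups. There Slfn3 differed by 0.75 (SE 0.22, edgeR adjusted p = 0.0691), a 1.69-fold higher level, and all 8 primary tumours were above all 4 allografts, as for 2.31% of genes. Slfn4 differed by 1.10 (SE 0.41, edgeR adjusted p = 0.154) in the same groups. Slfn9 differed by -0.40 (SE 0.14, edgeR adjusted p = 0.135) in these groups and Slfn8 by -0.46 (SE 0.21, edgeR adjusted p = 0.189) in the unirradiated anti-PD-1 groups.

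Differences of effects between the tumour kinds were tested in 1 fit of all 48 tumours. No member was called for the dose difference with isotype, where 0.00517% of genes were, nor for the dose difference with anti-PD-1, the antibody difference at either dose or the combined treatment, where 0% of genes were called. For Slfn4 the dose difference under isotype was larger in primary tumours by a log2 value of 0.995 (SE 1.06), with a 95% interval from -1.09 to 3.08. Without replicate 4 of the unirradiated isotype-treated primary tumours it was 2.24 (SE 0.94, edgeR adjusted p = 0.4232), and that of Slfn1 went from 0.63 to 1.17 (SE 0.48, edgeR adjusted p = 0.4186). Slfn2 had the 1 interaction with an unadjusted p below 0.05, a log2 value of -0.94 (SE 0.45, edgeR adjusted p = 0.5115) for the antibody at 20 Gy, where 1864 of 19327 genes had one.

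Inside groups, several members varied together from tumour to tumour. Correlations were computed over 48 tumours on log2(CPM + 0.5) after each group's mean was removed, so they do not contain the dose difference, with p-values from 100000 permutations of tumours within groups. Of the 21 pairs of members, 11 had an adjusted p below 0.05, all positive, and all 11 stayed above 0 without the 2 tumours farthest from the median. The coefficients ran from -0.199 to 0.818, with a median of 0.397. Within the allografts alone 4 pairs passed, and within the primary tumours alone 9.

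The short members made the closest pair. Slfn1 and Slfn2 had Pearson's r = 0.818 and Spearman's rho = 0.808 (permutation test, adjusted p = 5.25e-05, the smallest reached), and r was 0.758 without the 2 farthest tumours, 0.859 in allografts and 0.812 in primary tumours. The long members were also correlated over all tumours. Slfn5 and Slfn8 had r = 0.781 and rho = 0.695 (0.699 without 2 tumours), Slfn8 and Slfn9 had r = 0.693 and rho = 0.68 (0.661), and Slfn5 and Slfn9 had r = 0.582 and rho = 0.6 (0.552), the last with a permutation adjusted p = 0.000798. Within the irradiated isotype-treated primary tumours the coefficients were lower for Slfn5 with Slfn8 (-0.017) and for Slfn8 with Slfn9 (0.304), and 0.639 for Slfn5 with Slfn9, whereas Slfn1 and Slfn2 had 0.854 there. Slfn8 also followed Slfn1, with r = 0.734 and rho = 0.639 (0.642 without 2 tumours).

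Slfn4 followed Slfn1 with r = 0.572 and rho = 0.527 (permutation adjusted p = 0.0024, r = 0.514 without 2 tumours), with 0.313 in allografts and 0.617 in primary tumours. With Slfn2 it had r = 0.397 and rho = 0.417 (permutation adjusted p = 0.0219, r = 0.326 without 2 tumours). Its coefficient was 0.102 with Slfn5 (permutation adjusted p = 0.613) and 0.236 with Slfn9. With its neighbour Slfn3 it was -0.199, rho = -0.072 (permutation adjusted p = 0.331), and Slfn3 instead followed Slfn5 with r = 0.564 and rho = 0.443 (permutation adjusted p = 0.0024, r = 0.407 without 2 tumours).

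**Figure D4:**
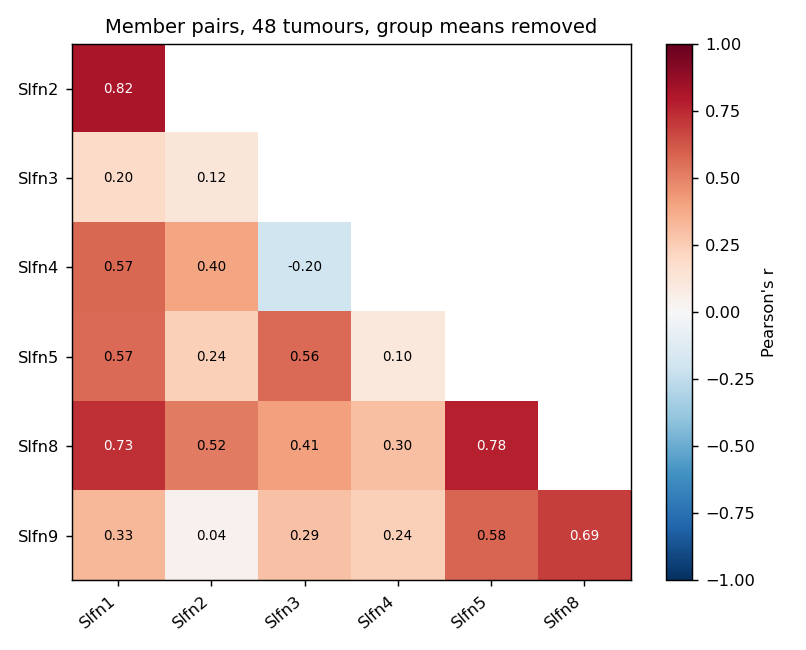
Pearson's r between each pair of Schlafen genes over 48 tumours on log2(CPM + 0.5) with group means removed, as a grid of coloured cells with the coefficient written in each. The highest cell is Slfn1 with Slfn2 (0.818) and the lowest is Slfn3 with Slfn4 (-0.199).

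The same coefficients were computed between each member and the summed level of 12 gene lists, 84 relations adjusted together. The short members followed leukocyte lists. Slfn2 had r = 0.779 and rho = 0.728 with NK cell markers (permutation adjusted p = 0.00014, 0.705 without 2 tumours), and r = 0.723 and rho = 0.77 with neutrophil and monocyte markers (permutation adjusted p = 0.000168, 0.789 without 2 tumours). With Ptprc it had r = 0.678 and rho = 0.646 (0.637 without 2 tumours). Slfn1 had r = 0.647, 0.682 and 0.589 and rho = 0.561, 0.811 and 0.621 with the same lists. Its r with neutrophil and monocyte markers was 0.921 over allografts and 0.621 over primary tumours. Against the mesenchymal markers Slfn2 had r = -0.486 and rho = -0.512 (permutation adjusted p = 0.00458, -0.518 without 2 tumours), so tumours with more of the sarcoma markers held less of it.

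Slfn4 followed 1 of the leukocyte lists. It had r = 0.524 and rho = 0.454 with neutrophil and monocyte markers (permutation adjusted p = 0.00221, 0.408 without 2 tumours), with 0.227 in allografts and 0.583 in primary tumours. Its r was 0.032 with Ptprc (permutation adjusted p = 0.902), -0.22 with T cell markers (permutation adjusted p = 0.378) and -0.243 with macrophage markers. Thus in primary tumours those with more Slfn4 than their group tended to hold more of these transcripts.

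With the list of type I interferon response genes, called the interferon list here, Slfn9 had r = 0.57 and rho = 0.57 (permutation adjusted p = 0.00137, 0.558 without 2 tumours). Its r was 0.166 for Ptprc (permutation adjusted p = 0.465). The coefficients of the other members with the interferon list were 0.596 for Slfn1 (rho = 0.414), 0.592 for Slfn5 (rho = 0.488), 0.555 for Slfn8 (rho = 0.364), 0.487 for Slfn4 (rho = 0.353, permutation adjusted p = 0.0204), 0.325 for Slfn2 (permutation adjusted p = 0.0809) and 0.232 for Slfn3 (permutation adjusted p = 0.251). Slfn8 also followed Ptprc, with r = 0.627 and rho = 0.603 (0.583 without 2 tumours). For Slfn5 with Ptprc r was 0.446 (permutation adjusted p = 0.0165, 0.312 without 2 tumours) and rho was 0.349 (permutation adjusted p = 0.0649). Without the 2 farthest tumours the coefficients of Slfn1, Slfn5 and Slfn8 with the interferon list were 0.388, 0.437 and 0.374. A second list, of interferon signal genes (ligands, receptors and factors), gave r = 0.747 for Slfn8, 0.739 for Slfn1, 0.701 for Slfn5 and 0.649 for Slfn2. These were 0.615, 0.592, 0.544 and 0.501 without 2 tumours, and for Slfn2 the permutation adjusted p was 0.00035. Slfn9, Slfn3 and Slfn4 had 0.479, 0.326 and 0.309 with the signal genes. The points of these correlations share their libraries, and the members and lists are levels of the same tumours.

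**Figure D5:**
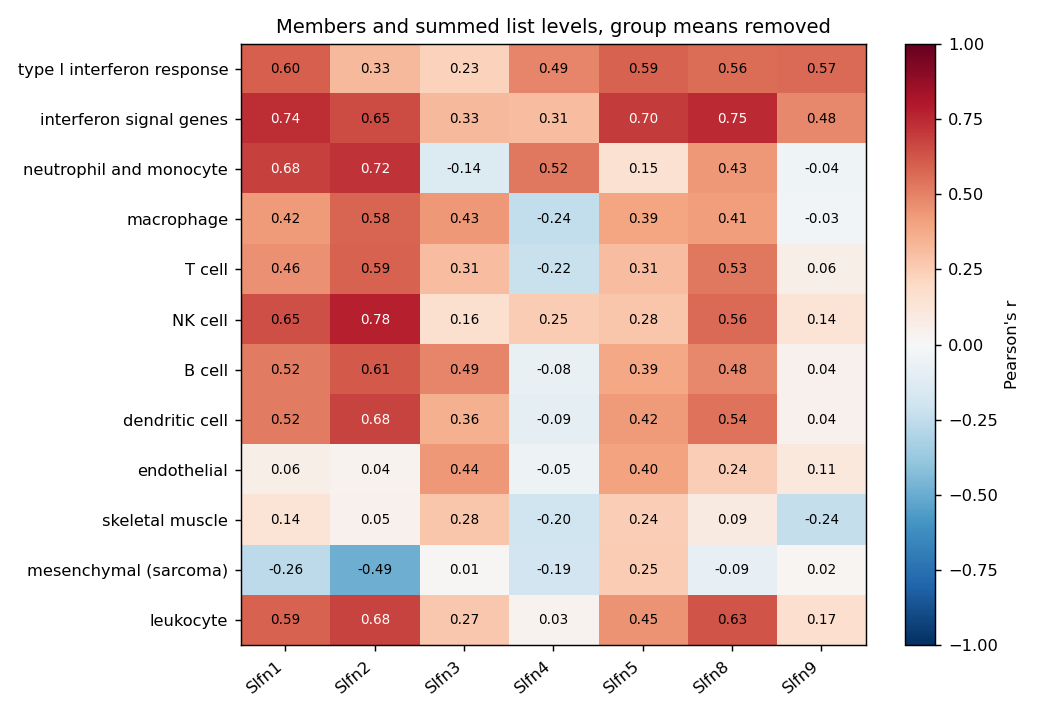
Pearson's r between each Schlafen gene and the summed level of each gene list over 48 tumours, on log2(CPM + 0.5) with group means removed, as a grid of coloured cells. The cells of Slfn2 reach 0.779 for NK cell markers, and those of Slfn4 are near 0 for Ptprc (0.032) and 0.524 for neutrophil and monocyte markers.

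The genes most like each member over all 48 tumours, with each group's mean removed, were ranked by Pearson's r. The ranking covered 14394 genes whose mean level was 1 CPM or more, and is a description with no test. Slfn1 was most like Ifi209 (r = 0.926), Ms4a4c (0.898), Ifi214 (0.895), Hsh2d (0.885) and Ly6c2 (0.868), of which Ly6c2 is a monocyte marker and in the marker list above. Slfn2 was most like Gm36161 (0.892), Ms4a6b (0.877), Gm21188 (0.87), Snx20 (0.863) and 1600014C10Rik (0.862). Slfn4 had Trim30b (0.866), the neutrophil chemokine gene Cxcl1 (0.772), Il13ra2 (0.746), Gm13822 (0.735) and Ifitm6 (0.733). The coefficients for Slfn3 were lower, with Zfp773 (0.647), Trim14 (0.615), Meox1 (0.606), Ppp1r13b (0.592) and Myo7a (0.592).

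Among the long members, Slfn5 was most like Dtx3l (0.891), an E3 ligase, Parp14 (0.866), a mono-ADP-ribosyltransferase, Znfx1 (0.841), Sp100 (0.825) and Gm6545 (0.82). Slfn9 was most like Rnf213 (0.757), Parp11 (0.716), Parp14 (0.704), Xaf1 (0.701) and Gbp3 (0.692). Slfn8 was most like Gm6545 (0.855), Ifi44l (0.819), Gm47242 (0.815), Uba7 (0.813), the activating enzyme for Isg15, and Iigp1 (0.812). Parp14 and Xaf1 are also in the interferon list. The Ifi, Trim30 and Gbp genes have close copies, so reads may have been split among them.

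The interferon pathway was followed with lists that were chosen with results of these data known. Of 28 type I interferon response genes, 28 and 26 were called higher at 20 Gy in allografts with isotype and anti-PD-1, and 28 and 27 in primary tumours. Their median log2 differences were 2.23, 1.62, 1.92 and 1.66. Isg15, a ubiquitin-like modifier, had log2 differences of 2.76 (SE 0.44), 2.24, 2.32 (SE 0.55) and 1.67 in these 4 pairs. As for the family, 0 of the 28 were called for the antibody or for an interaction. Of 18 tested genes of the signal itself, 8, 5, 12 and 10 were called higher.

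By role, the ligand gene Ifnb1 had log2 differences of 2.83 (SE 0.72), 3.14, 2.53 and 1.74 in these pairs, from mean levels of 0.126 and 0.896 CPM in isotype-treated allografts and 0.110 and 0.643 CPM in isotype-treated primary tumours. These levels are low, and they rest on 22 and 169 counts over the allografts and 36 and 200 over the primary tumours. The receptor gene Ifnar1 was at 0.15, 0.11, -0.03 and -0.04, and Ifnar2 at 0.48, 0.47, 0.55 and 0.33. Among the factors, Irf7, which amplifies interferon gene induction, had 3.12 (SE 0.36), 2.34, 2.47 (SE 0.43) and 2.18. Stat2 had 1.63, 1.02, 1.73 and 1.37, and Irf9 had 1.17, 0.87, 1.04 and 0.81. Among the receptor and factor genes named, the receptor genes thus had the smallest differences and Irf7 the largest.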

How the data were processed

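Whole-tumour RNA was sequenced from 48 tumours after poly(A) selection with a stranded dUTP kit, per the labels' protocols. The deposited table holds whole-number counts per Ensembl gene, made by the authors with Trimmomatic 0.36, STAR and HTSeq on mm10, per the submitters' processing notes. The annotation, the strand setting and the treatment of reads with several matches are not given in the sources used here.

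All 48 columns were matched to samples by name, and GENCODE M21 named 36796 of 36854 genes. The members and the gene lists were chosen with earlier results of these data known. Counts were tested with edgeR 4.0.16 in R 4.3.3 (filterByExpr, TMM scaling, quasi-likelihood F test, Benjamini-Hochberg adjustment over all genes tested, calls at an adjusted p below 0.05). Dose and antibody were tested within each tumour kind in 1 fit of its 4 groups (17746 genes in allografts, 17770 in primary tumours), the tumour kinds in fits of the 2 groups compared, and interactions between kinds in all 48 (19327 genes). All 7 members passed the filter on low counts in every comparison. CPM values use TMM factors over all 48 tumours, and RPKM values divide them by the kilobases of the merged exons. Member genes, their 5 most similar genes and the pathway genes were named by fixed rules of membership and rank. Correlations used log2(CPM + 0.5), permutation tests and adjustment over 21 pairs or 84 relations with lists. DESeq2 1.42.0, other scalings, filters, covariates, sample sets and leaving out each tumour were alternatives. The labels give no replicate numbers, so numbers follow the order of deposition and name tumours only. Where labels do not say so, tumours are taken as separate animals, and p-values measure the spread between these samples. Counts of PCR-amplified reads are not independent molecules. The edgeR steps were tested on simulated data. The RefSeq promoter table is not complete for all genes, and no protein table was used here.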

Additional observations from a re-analysis of the deposited data

Results flagged for a closer look

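The highest or lowest tumour stood far from the others of its group in 9 of the 56 sets of 1 member in 1 group. The limit used gives about 1 in 20 by chance for normally distributed values. These were CPM without logs, which are skewed, and the members share tumours, so the count is not set against that share. Replicate 4 of the unirradiated isotype-treated primary tumours was such a tumour for 3 members, with Slfn1 at 44.4 CPM (the nearest other at 15.4), Slfn2 at 105.95 CPM (64.4) and Slfn4 at 98.6 CPM (19.2). Its type I interferon response genes summed to 4610 CPM. In the same group Slfn3 was highest in replicate 2, at 4.17 CPM beside 3.22.

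Slfn4 had 3 more such tumours. It was at 91.4 CPM (nearest other 18.8) in replicate 4 of the unirradiated anti-PD-1 primary tumours, at 778 CPM (341) in replicate 3 of the irradiated isotype-treated primary tumours, and at 411 CPM (227) in replicate 3 of the irradiated anti-PD-1 allografts. Slfn3 was at 14.6 CPM (7.85) in replicate 3 of the unirradiated anti-PD-1 primary tumours. Slfn9 was low, at 41.1 CPM with the next at 52.7 CPM, in replicate 1 of the unirradiated anti-PD-1 allografts.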

How the results depend on the processing

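No paired analysis was possible because the labels give no replicate number that tumours of different groups share. Of 840 recomputed dose differences of members, 817 moved by less than the spread between tumours, 23 moved further (4 of them outside the Ptprc fit) and 0 of the called ones changed sign. In anti-PD-1 allografts the 6 members called at 20 Gy became 1 in a fit of those 2 groups alone and 3 in a fit of all 48 tumours. With Xist above 10 CPM as a covariate they became 4, beside 2.86% of genes. Xist passed that level in 1 of 4 unirradiated and 3 of 4 irradiated tumours of this pair. With Ptprc as a covariate, added after seeing the data, 0 were called in allografts with isotype, with anti-PD-1 and for the combined treatment, where Slfn4 had log2 differences of 2.92, 3.77 and 3.60 beside 3.09, 3.91 and 3.80. In primary tumours 6, 5 and 5 were called, of 816, 918 and 1102 genes, Slfn3 in none of these and Slfn9 under isotype alone. In these counts the cause was not tested. Leaving out 1 tumour gave 3 to 6 calls in anti-PD-1 allografts (3 without replicate 4 at 0 Gy), 5 to 6 in anti-PD-1 primary tumours, and 6 to 7 in the isotype pairs and the combined treatment of both kinds.

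Between kinds, DESeq2 called 2 members in the unirradiated anti-PD-1 groups and 1 in the irradiated isotype groups, beside 13.1% and 8.77% of genes. The edgeR fit of all 48 called 1 in each anti-PD-1 pair, beside 7.39% of genes at 0 Gy and 6.77% at 20 Gy. The edgeR fits of the 2 groups compared called 0. Leaving out 1 tumour gave 0 to 1 in both isotype pairs, 0 to 2 in the unirradiated anti-PD-1 pair and 0 to 0 in the irradiated one. The 1 in the isotype pairs came without replicate 4 of the unirradiated and replicate 2 of the irradiated primary tumours. The antibody comparisons and interactions kept 0 to 0. Of 297 alternatives to tested member differences, 287 kept their side of the threshold, 10 passed it and 0 changed sign. Of 671 for the 11 correlated pairs, 650 stayed and 21 did not. The pairs numbered 10 to 12 when 1 tumour was left out, 9 to 12 when a group was, and 4 in allografts alone. The identifier digit could not be fitted between kinds at 0 Gy with isotype and was not run. Over all genes, the doses in isotype-treated allografts gave 912 calls by edgeR and 1459 by DESeq2. With edgeR there were 196 with the identifier digit, 500 with Xist and 372 in the fit of all 48, with 6, 6 and 5 members called. The identifier began with 5 in 4 of 4 unirradiated and 1 of 4 irradiated tumours of this pair.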

Other observations

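Of the 4 other Schlafen-named genes of the table, Slfn10-ps averaged 4.03 to 15.3 CPM by group and the other 3 were low. Slfn14, a gene of the same cluster that is known from platelets and red cell precursors, was at 2.74 CPM in replicate 3 of the unirradiated anti-PD-1 allografts and 1.05 CPM in replicate 3 of the unirradiated isotype-treated allografts, and at most 0.0793 CPM in the other 46 tumours. Slfnl1, on chromosome 4, reached 0.142 CPM and Slfn5os, the antisense partner of Slfn5, 0.357 CPM.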
